A study of Rattus norvegicus with 8 samples.

Results

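The synaptic vesicle and release machinery was examined as a group of 44 genes, taken by symbol from the 17337 genes counted in the striatum. The genes encode proteins of the vesicle membrane (11 genes), calcium sensors and their relatives (8), and SNARE proteins and their partners (8). Others encode proteins that take SNARE complexes apart (3) and proteins of the active zone and of vesicle priming (8). The rest encode proteins of vesicle endocytosis (4) and the vesicular glutamate transporters (2). All 44 were in the count table, and 43 passed the filter on low counts. The gene that did not pass was Slc17a6. RNA was sequenced from 8 male Sprague-Dawley rats of wild-type genotype, of which 4 had pressed a lever for intravenous methamphetamine (METH) and 4 for saline in daily sessions. All 8 rats had been trained with food and had received a jugular catheter under pentobarbital anesthesia, and ketamine with xylazine was given before the brains were taken. Their age is not given in the sources used here. Poly(A) RNA of striatal tissue was sequenced, so that the values are averages over all cell types of the tissue. The total count ranged from 18135939 to 21211920 per rat.

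Neurons store transmitter in vesicles that dock and are primed at the active zone, a protein scaffold of the presynaptic membrane. Calcium entering the terminal binds to synaptotagmins, and the SNARE proteins of the vesicle and of the plasma membrane zip together and fuse them. The complex is then taken apart by NSF with its SNAP adaptors, and the membrane is retrieved by endocytosis. In the striatum, this machinery is transcribed by the projection neurons and interneurons whose cell bodies lie there. The cortical, thalamic and dopaminergic axons that end in the striatum contain the proteins, whereas the mRNA of those neurons is mostly in cell bodies elsewhere. METH acts on dopamine terminals, where it releases dopamine through its transporter and from vesicles.

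Between METH and saline rats, the release genes differed little, and the gene with the lowest p was Snap25, which encodes a SNARE protein of the plasma membrane. No release gene was called in edgeR's quasi-likelihood test, where a call needed an FDR below 0.05 and an average log2 CPM (counts normalized for the size of the library) over 1. Of the 12014 genes tested, 62 (0.516%) were called in this way. At an unadjusted p below 0.05, 7 of the 43 genes differed (16.3%), compared with 11.1% of all genes tested. Of the 7, Cplx1 and Vamp1 were higher in METH rats, and Snap25, Sv2b, Unc13b, Syt11 and Amph were lower. Among all genes tested, 6.26% were higher and 4.88% were lower at this threshold. For 4 of the 43 genes (9.30%), the ranges of the groups did not overlap, which was the case for 6.39% of all genes tested. These were Snap25, Sv2b and Unc13b, all lower in METH rats, and Cplx1, which was higher. With METH rat 4 left out, Snap25 was called by the same test, so that the count of calls was 1, and 56 of all 12109 genes tested were called. With METH rat 2 left out, 13 release genes (30.2%) differed at an unadjusted p below 0.05, compared with 11.6% of all genes, and 9 (20.9%) did not overlap, compared with 10.4% of all genes. With saline rat 1 left out, 8 (18.6%) did not overlap, compared with 10.8% of all genes. Other omissions lowered the count at an unadjusted p below 0.05. It was 5 (11.6%) without saline rat 3, compared with 9.08% of all genes, and 5 (11.6%) without METH rat 3, compared with 7.52%.

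METH was below saline (log2 fold change under 0) in 28 and above it in 15 of the 43 genes, with a median of -0.11, whereas the median of all genes tested was -0.0055. Single release genes had a median standard error of 0.10. The median log2 fold change of the release genes depended on 2 rats. It was -0.00047 without saline rat 3 and -0.046 without METH rat 3. The release genes took 1.07% ± 0.0654 (SD, n = 4) of all counts in saline rats and 1.01% ± 0.0486 (SD, n = 4) in METH rats, and the groups overlapped, with 0.985% to 1.14% in saline rats and 0.951% to 1.06% in METH rats. The DESeq2 Wald test called 186 of all genes (1.55%) and 2 release genes, Snap25 (FDR = 0.00141) and Sv2b (FDR = 0.0246), both lower in METH rats. Over the alternatives of test, scaling, filter and rats, the FDR ranged from 0.00141 to 0.199 for Snap25 and from 0.0246 to 0.499 for Sv2b. In a piece of tissue, fewer cells of a type and less RNA per cell cannot be told apart. The summed level of 10 pan-neuronal marker genes was 2914 to 3161 CPM in saline rats and 2935 to 3130 CPM in METH rats, and of these 10 genes Elavl3, an RNA-binding protein of neurons, was called lower, with a log2 fold change of -0.61. The summed level of 12 markers of striatal projection neurons was 15158 to 16248 CPM in saline rats and 15968 to 19977 CPM in METH rats. The median log2 fold change of these 12 genes was only 0.024. At an unadjusted p below 0.05, 2 of them (16.7%, compared with 11.1% of all genes tested) were higher and 0 were lower. Among the markers of other cells, the 8 microglial genes summed to 344.2 to 404.8 CPM in saline rats and 308.9 to 374.6 CPM in METH rats, with 1, Cx3cr1, called lower. The 5 endothelial genes summed to 418.5 to 608.8 CPM in saline rats and 416.6 to 452.2 CPM in METH rats. Both lists had a median log2 fold change of -0.21. At an unadjusted p below 0.05, 2 microglial genes (25%) and 3 endothelial genes (60%) differed, all lower, compared with 11.1% of all genes tested in either direction. The 8 choroid plexus genes summed to 5.30 to 6.67 CPM in saline rats and 6.90 to 10.4 CPM in METH rats, without overlap. Only 3 of these 8 genes passed the filter on low counts, and of the 3, 0 were called and 0 were without overlap singly. The sums of a list of cortical glutamatergic markers, given below, did not overlap either. Those of astrocytes, oligodendrocytes, striatal interneurons and thalamic neurons overlapped between the groups. The part of these levels in the results was not tested.

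**Figure D1:**
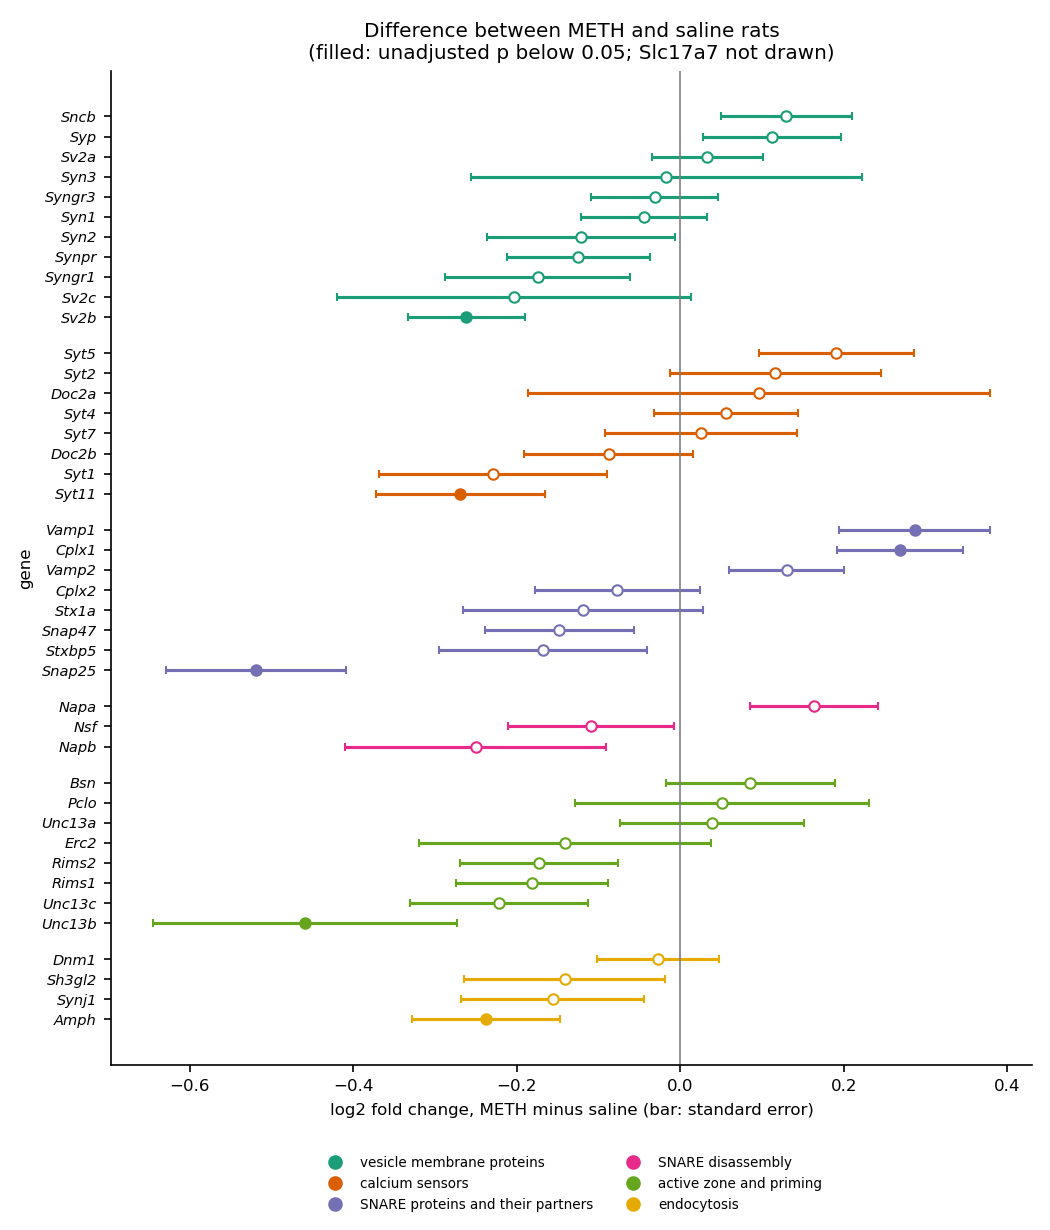
Log2 fold change (METH against saline, x axis) of each release gene, ordered by role; points are quasi-likelihood estimates and bars are 1 standard error, with 4 rats per group. Most genes lie within 0.25 of 0, and Snap25 lies farthest to the left at -0.52. Slc17a7, at -1.54 with a standard error of 0.86, is not drawn, and Slc17a6 was not tested.

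Among the SNARE proteins and their partners, 1 gene was lower and 2 were higher at an unadjusted p below 0.05. Snap25 encodes a protein that contributes to the SNARE bundle from the plasma membrane. Its level in saline rats 1 to 4 was 1274, 1120, 1279 and 1385 CPM, and in METH rats 1 to 4 it was 878.0, 931.5, 686.2 and 1035 CPM. Every METH rat lay below every saline rat, with the lowest value in METH rat 3. The mean was 1265 ± 109 CPM in saline rats and 882.6 ± 146 CPM in METH rats (SD, n = 4), a log2 fold change of -0.52 (SE 0.11) or a fitted ratio of 0.698. The FDR was 0.0632 by the quasi-likelihood test of edgeR (unadjusted p = 0.000363). The exact permutation test gave a two-sided p of 0.0286, the smallest that 4 against 4 rats can give. The call depended on the rats and on the test. The FDR was 0.0381 without METH rat 4, 0.0754 with a log2 fold change of -0.42 without METH rat 3, and 0.199 without saline rat 4, while limma-voom gave an FDR of 0.0576 and the likelihood ratio test of edgeR one of 0.00200.

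Complexin 1, encoded by Cplx1, binds assembled SNARE complexes and holds them until calcium arrives. Its level was 767.2, 739.9, 713.8 and 718.8 CPM in saline rats 1 to 4 and 904.3, 845.1, 998.3 and 793.4 CPM in METH rats 1 to 4. The groups did not overlap, and the saline rats lay closer together than the METH rats. The log2 fold change was 0.27 (SE 0.077, FDR = 0.214 by the quasi-likelihood test of edgeR), from 734.9 ± 24.3 CPM in saline rats to 885.3 ± 88.0 CPM in METH rats (SD, n = 4). Cplx2, which encodes the related complexin 2, had a log2 fold change of -0.077. Vamp1 encodes a synaptobrevin, the SNARE protein of the vesicle. Its level was 195.3, 165.7, 148.1 and 158.0 CPM in saline rats 1 to 4 and 187.8, 198.2, 223.4 and 204.4 CPM in METH rats 1 to 4. The groups overlapped through saline rat 1, which lay above METH rat 1. The log2 fold change of Vamp1 was 0.29 (SE 0.092, FDR = 0.268 by the quasi-likelihood test of edgeR), from 166.8 ± 20.3 CPM to 203.4 ± 15.0 CPM (SD, n = 4), and without saline rat 1 it was 0.37. Vamp2, the other synaptobrevin, had a log2 fold change of 0.13. Of the remaining genes, Snap47, a relative of Snap25, was at -0.15, Stx1a, the syntaxin that pairs with Snap25, at -0.12, and Stxbp5, which encodes tomosyn, an inhibitor of SNARE assembly, at -0.17. None of these 3, nor Vamp2 or Cplx2, passed an unadjusted p below 0.05 by the quasi-likelihood test.

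**Figure D2:**
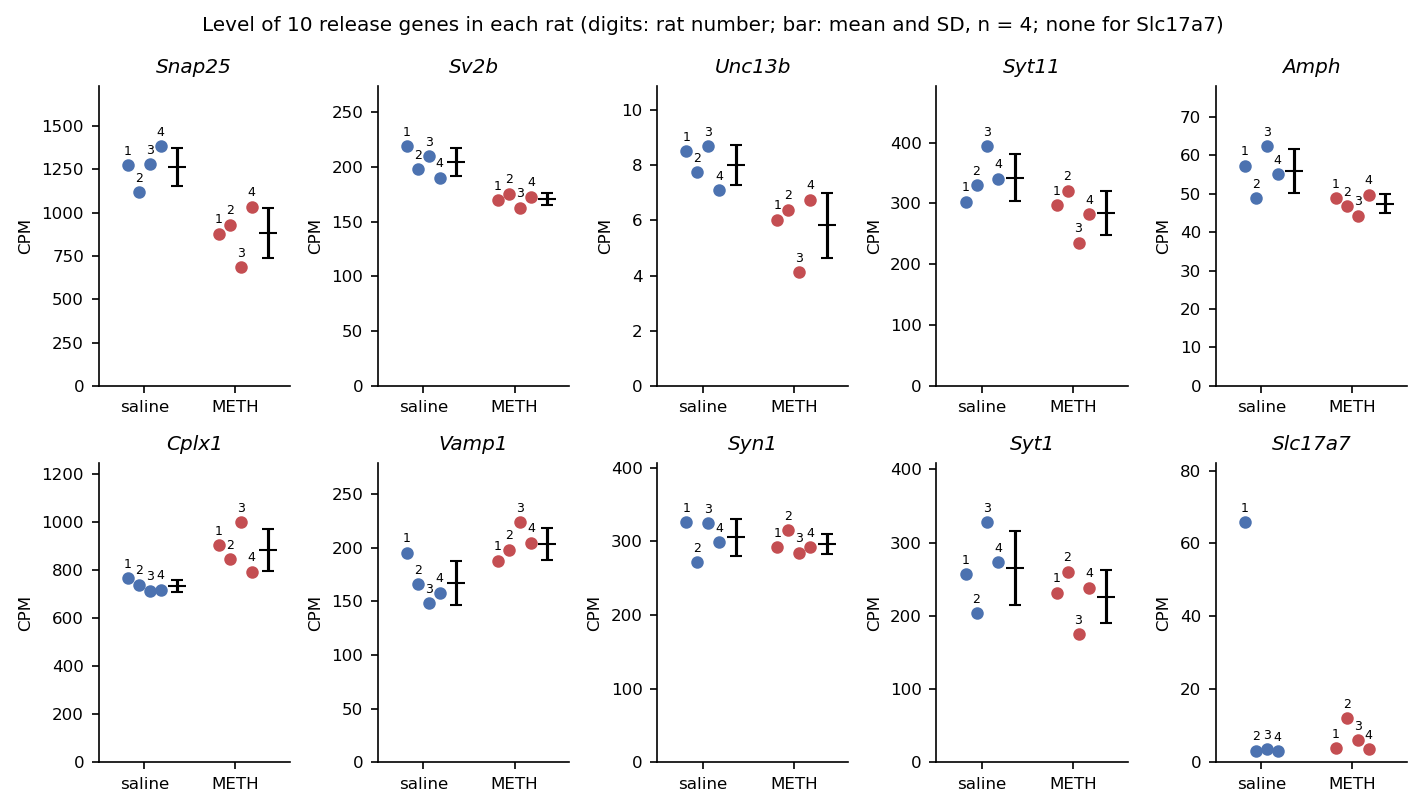
Level of 10 release genes in each rat (y axis, CPM from 0; x axis, group). Each point is 1 rat with its number, and bars show the mean and SD of 4 rats, except for Slc17a7, where saline rat 1 stands apart at 65.8 CPM. Saline and METH rats are separate for Snap25, Sv2b, Unc13b and Cplx1 and overlap for the other 6 genes.

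Promoter sequences were compared for 35 of the 44 genes, those with an entry in the RefSeq promoter table of assembly GRCr8. The count table was made on rn6 and holds no coordinates. The 250 bases before the annotated start are shown for the genes with an unadjusted p below 0.01 and an entry, so that genes lower and higher in METH rats can be compared. Snap25, which had the lowest p, has no entry. Capitals mark the motifs found on either strand, each 5′ to 3′ on the strand of the gene. The windows are chr1:138562259-138562508 on the minus strand for Sv2b, chr4:159698644-159698893 on the plus strand for Vamp1 and chr14:1328823-1329072 on the plus strand for Cplx1.
Sv2b: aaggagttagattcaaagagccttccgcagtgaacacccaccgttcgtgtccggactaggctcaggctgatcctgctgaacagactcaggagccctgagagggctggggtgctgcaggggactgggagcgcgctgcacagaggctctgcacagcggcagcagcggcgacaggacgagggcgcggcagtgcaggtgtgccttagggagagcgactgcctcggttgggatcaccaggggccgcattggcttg
Vamp1: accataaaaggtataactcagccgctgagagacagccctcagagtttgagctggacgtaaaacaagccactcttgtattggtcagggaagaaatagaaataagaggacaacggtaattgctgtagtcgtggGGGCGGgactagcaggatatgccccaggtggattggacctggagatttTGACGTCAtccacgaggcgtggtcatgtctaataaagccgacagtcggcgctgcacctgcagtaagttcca
Cplx1: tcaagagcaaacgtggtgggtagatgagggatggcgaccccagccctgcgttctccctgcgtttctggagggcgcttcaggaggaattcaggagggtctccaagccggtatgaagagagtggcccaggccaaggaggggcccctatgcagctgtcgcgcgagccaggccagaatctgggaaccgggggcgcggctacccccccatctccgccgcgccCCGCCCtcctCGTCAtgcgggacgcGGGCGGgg

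Searched on both strands, the cAMP response element TGACGTCA, which CREB binds, was found in the windows of 4 genes, Syn1, Vamp1, Napa and Sh3gl2 (11.4%), compared with 1.7% of 27457 promoters of the same length. Its core TGACG, which lies within the full element, was found in 12 (34.3%, compared with 19% of all promoters). The GC box GGGCGG, which Sp1 binds and which can overlap the Egr site GCGTGGGCG, was found in 24 (68.6%, compared with 32.4%). The Egr site itself was found in 1, Vamp2 (2.86%, compared with 0.514%). The TATA box TATAAA was found in 0 of the 35 windows and in 13.1% of all promoters, and the REST element in 0 and in 0.00728%. The median GC content of the windows was 64.8%, whereas it was 52.0% over all promoters, and GC content was not matched in these shares. Of the 3 windows shown, that of Vamp1 holds the full cAMP response element and a GC box, that of Cplx1 the core and 2 GC boxes, and that of Sv2b none of the motifs searched.

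Among the vesicle membrane genes, Sv2b was lower at an unadjusted p below 0.05 and 10 did not pass. Sv2b encodes a glycoprotein of the vesicle membrane with the shape of a transporter. Its level was 218.9, 197.6, 209.6 and 190.0 CPM in saline rats 1 to 4 and 169.6, 175.6, 162.8 and 172.7 CPM in METH rats 1 to 4. Every METH rat lay below every saline rat, and the METH rats lay close together. The mean was 204.0 ± 12.8 CPM in saline rats and 170.2 ± 5.49 CPM in METH rats (SD, n = 4), with a log2 fold change of -0.26 (SE 0.071) and an FDR of 0.178 by the quasi-likelihood test of edgeR. The related Sv2a had a log2 fold change of 0.033, and Sv2c, which is enriched in the basal ganglia, had one of -0.20 with a range over the rats of 30.8 to 75.9 CPM.

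Syn1 encodes synapsin 1, which tethers vesicles into the reserve pool. Its level was 325.6, 271.8, 324.6 and 298.9 CPM in saline rats 1 to 4 and 292.0, 315.3, 284.7 and 292.2 CPM in METH rats 1 to 4. The METH rats lay within the range of the saline rats, and the log2 fold change was -0.044 (SE 0.077). Syn2 and Syn3, the other synapsins, had log2 fold changes of -0.12 and -0.017. Syp (synaptophysin, which binds synaptobrevin) was at 0.11, Synpr (its relative synaptoporin) at -0.12, the synaptogyrins Syngr1 and Syngr3 at -0.17 and -0.031, and Sncb (beta-synuclein) at 0.13.

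Among the 8 genes of calcium sensors and their relatives, Syt11 was lower at an unadjusted p below 0.05. Syt11 encodes a synaptotagmin that does not bind calcium and is known to restrain endocytosis. Its level was 302.5, 330.0, 394.4 and 340.7 CPM in saline rats 1 to 4 and 296.8, 321.1, 235.1 and 282.1 CPM in METH rats 1 to 4. The groups overlapped, and the values farthest apart were those of saline rat 3 and METH rat 3. The log2 fold change of Syt11 was -0.27 (SE 0.10, FDR = 0.366 by the quasi-likelihood test of edgeR), and -0.19 without METH rat 3. Syt1 encodes the main sensor of fast release in forebrain neurons. Its level was 257.1, 203.3, 327.3 and 272.8 CPM in saline rats 1 to 4 and 231.7, 260.0, 174.6 and 238.5 CPM in METH rats 1 to 4. The groups overlapped, with a log2 fold change of -0.23 (SE 0.14). Syt2, a fast sensor that resembles Syt1, was at 0.12, Syt4, which is induced by activity, at 0.056, Syt5 at 0.19 and Syt7, a slow sensor of high affinity, at 0.026. Doc2a and Doc2b, sensors of spontaneous and asynchronous release, were at 0.097 and -0.088.

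Among the active zone and priming genes, Unc13b was lower at an unadjusted p below 0.05 and 7 did not pass. Unc13b encodes a priming factor that opens syntaxin. Its level was 8.51, 7.75, 8.69 and 7.09 CPM in saline rats 1 to 4 and 6.02, 6.38, 4.12 and 6.75 CPM in METH rats 1 to 4. The groups did not overlap, although saline rat 4 and METH rat 4 were close, and the counts behind these values were only 73 to 180 per rat. For Unc13b, the log2 fold change was -0.46 (SE 0.19, FDR = 0.394 by the quasi-likelihood test of edgeR), and -0.33 without METH rat 3. Its relatives Unc13a and Unc13c were at 0.039 and -0.22. The scaffold genes Rims1, Rims2 and Erc2 had log2 fold changes of -0.18, -0.17 and -0.14, and those of the very large scaffold proteins bassoon (Bsn) and piccolo (Pclo) were 0.086 and 0.051.

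All 4 endocytosis genes had a log2 fold change below 0, and only Amph passed an unadjusted p below 0.05. Amph encodes amphiphysin, which senses membrane curvature and recruits dynamin. Its level was 57.3, 48.8, 62.4 and 55.1 CPM in saline rats 1 to 4 and 48.8, 46.7, 44.3 and 49.8 CPM in METH rats 1 to 4. Saline rat 2 lay within the range of the METH rats, and the other saline rats lay above it. Amph had a log2 fold change of -0.24 (SE 0.090, FDR = 0.358 by the quasi-likelihood test of edgeR). Dnm1 (dynamin, which cuts the vesicle neck) was at -0.027, Sh3gl2 (endophilin, which bends the membrane) at -0.14 and Synj1 (synaptojanin, which strips the clathrin coat) at -0.16. The shared sign depended on saline rat 3. Without that rat, Dnm1 was at 0.014, Sh3gl2 at -0.052, Synj1 at -0.053 and Amph at -0.18. Of the SNARE disassembly genes, the ATPase Nsf was at -0.11, and its adaptors Napa and Napb were at 0.16 and -0.25. None of these 3 passed an unadjusted p below 0.05 by the quasi-likelihood test.

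The vesicular glutamate transporters fill vesicles with glutamate and mark neurons that are rare in the striatum. Slc17a7, the transporter of cortical glutamatergic neurons, was at 65.8, 3.20, 3.67 and 3.12 CPM in saline rats 1 to 4 and at 3.92, 12.2, 6.10 and 3.58 CPM in METH rats 1 to 4. Saline rat 1 stood apart, at 19.7 times the mean of the other saline rats (3.33 ± 0.298 CPM, SD, n = 3). The log2 fold change was -1.54 (SE 0.86, FDR = 0.509 by the quasi-likelihood test of edgeR) with this rat, and 0.96 without it, so that its direction rested on 1 rat. Slc17a6, the transporter of thalamic neurons, had 13, 1, 7 and 0 counts in saline rats 1 to 4 and 10, 1, 4 and 1 counts in METH rats 1 to 4, where 3 counts correspond to 0.142 to 0.169 CPM. These counts are too few to compare the groups.

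Of 12 cortical glutamatergic marker genes examined in the count table, 4 had their highest count in saline rat 1. Tbr1, a transcription factor of deep-layer cortical neurons, had 69 counts there and 1 to 9 in the other 7 rats. Neurod2 had 74 counts there compared with 0 to 4, Neurod6 66 compared with 0 to 13 and Rtn4rl2 95 compared with 0 to 9. The other 8 markers, Cux2, Rorb, Fezf2, Nrn1, Lamp5, Nrgn, Kcnv1 and Neurod1, were not highest in this rat. The summed level of the cortical list was 3689 to 4230 CPM in saline rats and 4444 to 6603 CPM in METH rats, without overlap. Nrgn, which striatal neurons also express, made up the most of this sum. With saline rat 1 and METH rat 3 both left out, an alternative chosen after seeing the data, 0 release genes were called by the quasi-likelihood test of edgeR, 9 (20.9%) did not overlap between the groups compared with 13.6% of all genes, and the log2 fold change of Snap25 was -0.41.

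**Figure D3:**
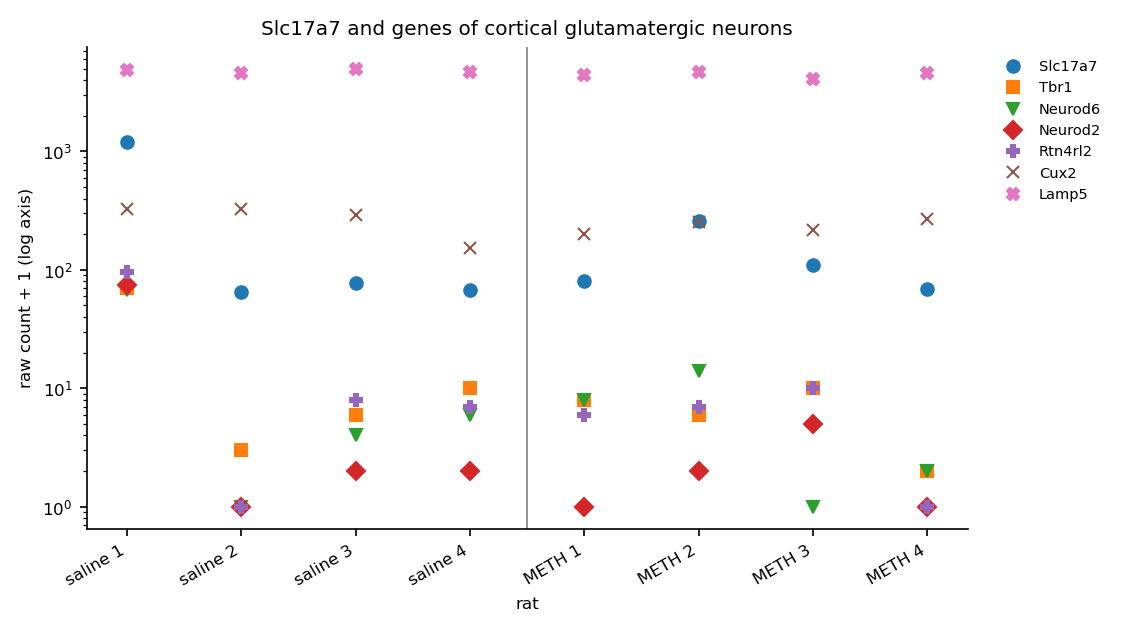
Counts of Slc17a7 and of cortical marker genes in each rat (log axis of count plus 1). Saline rat 1 lies above the other 7 rats for Slc17a7, Tbr1, Neurod6, Neurod2 and Rtn4rl2.

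Within the groups, the release genes ranked the rats in a similar order. Of the 43 genes, 30 (69.8%) had their highest saline value in saline rat 3, compared with 29.2% of all genes tested, and 19 (44.2%) had their lowest in saline rat 2, compared with 26.3%. Among the METH rats, 25 (58.1%) were highest in METH rat 2, compared with 23.7% of all genes, and 25 (58.1%) were lowest in METH rat 3, compared with 31.2%. The within-group SD of log2 CPM had the same size as elsewhere, with a median of 0.18 for the release genes and for all genes tested. METH rat 3 was the highest METH rat for 7 genes (16.3%, compared with 31.9% of all genes). These were Sncb, Syt5, Vamp1, Vamp2, Stx1a, Cplx1 and Napa. The normalization factor of METH rat 3 was 0.956, below the 0.991 to 1.018 of the other rats, and its part in these values was not tested.

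**Figure D4:**
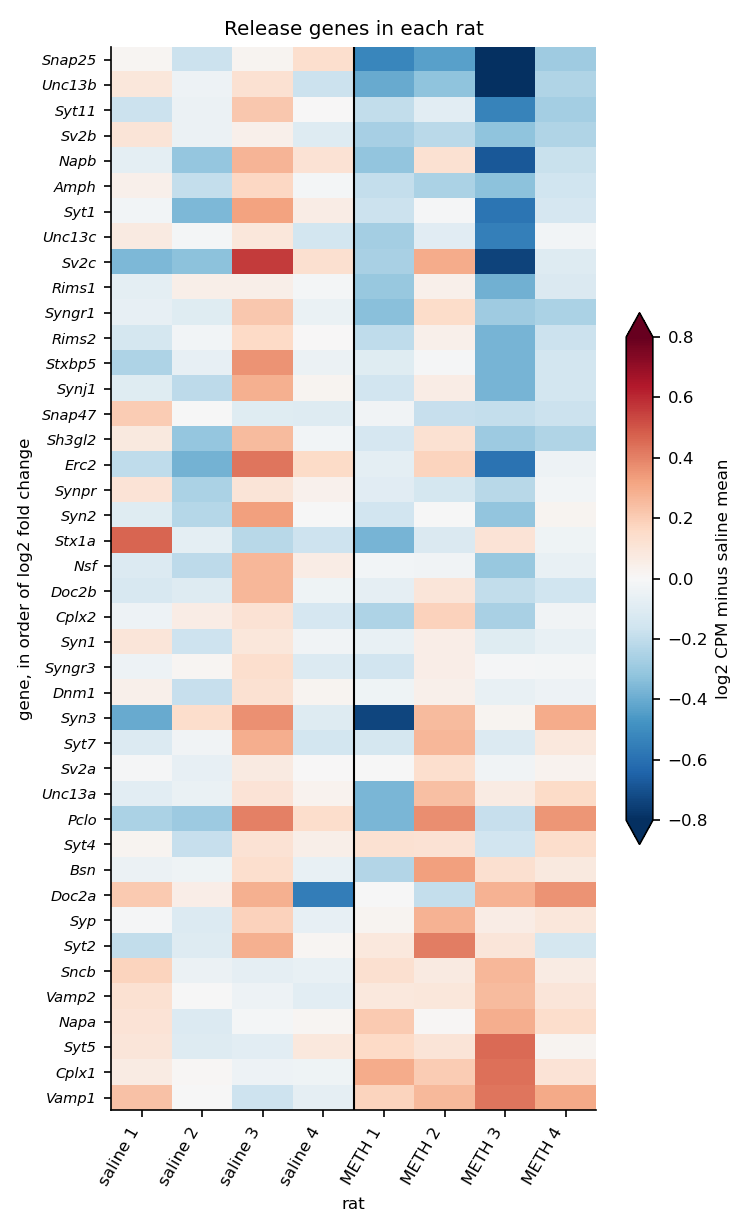
Deviation of log2 CPM of each release gene (rows, in order of log2 fold change) from its mean over the 4 saline rats, in each of the 8 rats (columns); red is higher and blue is lower. Saline rat 3 is red and METH rat 3 is blue for many genes, whereas Sncb, Vamp1, Vamp2, Syt5, Cplx1 and Napa are highest among METH rats in METH rat 3. Slc17a7 and Slc17a6 are not drawn.

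The balance between related genes was compared as the log2 ratio of their counts in each rat, for 15 pairs, with a two-sided exact permutation test adjusted over the 15 pairs by the Benjamini-Hochberg method. None of the 15 pairs passed an adjusted p of 0.05. The lowest adjusted p was 0.171, shared by 5 pairs. The groups did not overlap in 2 of them. The log2 ratio of Sv2b to Sv2a counts was -0.86, -0.95, -1.004 and -1.08 in saline rats 1 to 4 and -1.23, -1.33, -1.27 and -1.24 in METH rats 1 to 4, a difference of -0.29 (exact permutation p = 0.0286). Every METH rat had a lower ratio than every saline rat, where Sv2b was the gene with the larger difference. The log2 ratio of Syt4 to Syt11 was -0.30, -0.64, -0.60 and -0.45 in saline rats 1 to 4 and -0.18, -0.30, -0.12 and -0.088 in METH rats 1 to 4, a difference of 0.33 (exact permutation p = 0.0286). The METH rats were higher in all comparisons, but METH rat 2 and saline rat 1 nearly met.

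The other 3 of these pairs overlapped between the groups, each with an exact permutation p of 0.0571. The log2 ratio differed by 0.34 for Syt2 to Syt1, by 0.16 for Vamp1 to Vamp2 and by -0.50 for Unc13b to Unc13a. The log2 ratio of Cplx2 to Cplx1 was -1.57 ± 0.13 in saline rats and -1.92 ± 0.33 in METH rats (SD, n = 4), a difference of -0.35 (exact permutation p = 0.114), and that of Napb to Napa differed by -0.43 (exact permutation p = 0.143). In both pairs the METH rats were spread more widely than the saline rats. A ratio near 0 difference was seen for Rims2 to Rims1 (0.014) and for Pclo to Bsn (-0.030).

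**Figure D5:**
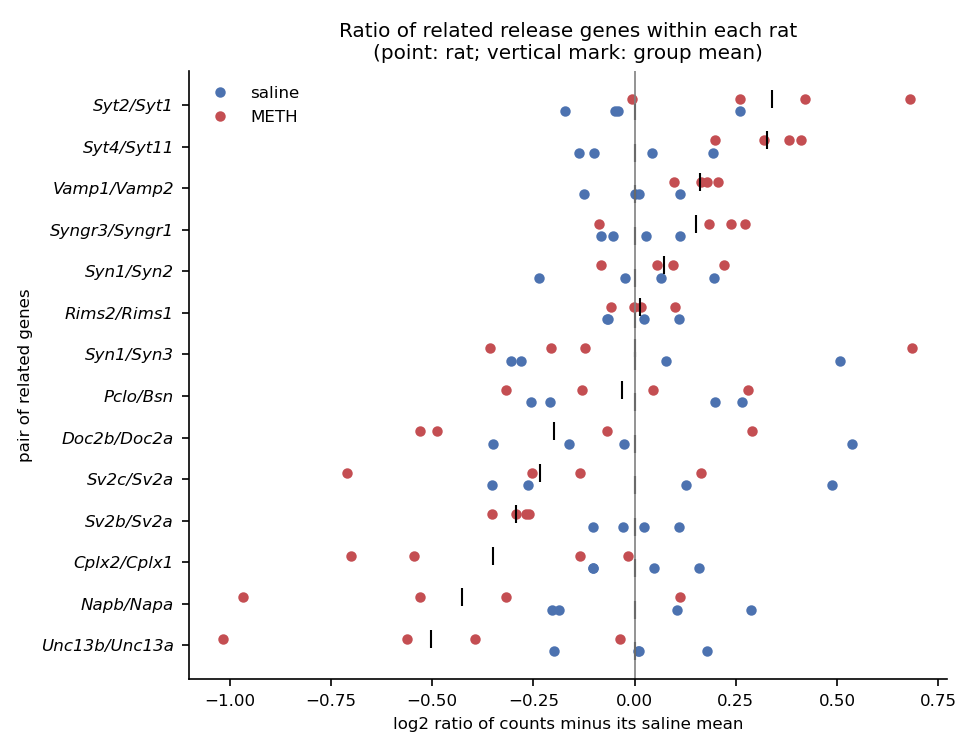
Log2 ratio of the levels of related release genes in each rat, relative to the mean of the saline rats (x axis, log2 units; y axis, gene pair). Blue points are saline rats, red points are METH rats, and vertical marks are group means. METH rats lie below all saline rats for Sv2b to Sv2a and above all of them for Syt4 to Syt11. The pair of Slc17a7 and Slc17a6 is not drawn.

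A wider list of other release machinery held 71 genes, of which 68 were in the count table and tested. None was called by the quasi-likelihood test of edgeR or by DESeq2, and 4 of 68 (5.88%) had an unadjusted p below 0.05, a smaller share than the 11.1% of all genes tested, with a median log2 fold change of -0.037. Hspa8, the chaperone that uncoats clathrin vesicles, was higher, with a log2 fold change of 0.23 and 1200 ± 138 CPM in saline rats compared with 1409 ± 32.9 CPM in METH rats (SD, n = 4). Its groups did not overlap, which was the case for 1 of the 68 genes, compared with 6.39% of all genes tested. Lower were the endocytic adaptor Eps15, with a log2 fold change of -0.33, the dense-core vesicle priming factor Cadps, with one of -0.29, and the active zone scaffold Ppfia2, with one of -0.35. The groups of Eps15, Cadps and Ppfia2 overlapped. By the quasi-likelihood test of edgeR, the FDR was 0.249 for Eps15, 0.307 for Hspa8, 0.421 for Cadps and 0.430 for Ppfia2. Apba1, a Munc18-binding adaptor, came next at -0.26 (unadjusted p = 0.0614 by the quasi-likelihood test of edgeR).

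For each of the 7 genes with an unadjusted p below 0.05, the genes most like it were found by the correlation of log2 CPM over the 8 rats after removing the group means. These are descriptions over few rats that share library depth and composition. The nearest gene was Tceanc for Snap25 (r = 0.980), Srm for Sv2b (r = 0.968), Dbndd2 for Cplx1 (r = 0.982), Tnfsf13 for Vamp1 (r = 0.987), Gmcl1 for Unc13b (r = 0.979), Palm2 for Syt11 (r = 0.998) and Kcnk13 for Amph (r = 0.975). Next came Smarca2 and Zfp26 for Snap25 (r = 0.974 and 0.972) and Prickle2 and LOC297756 for Sv2b (r = 0.960 and 0.955). Rab3b and LOC691921 followed for Cplx1 (r = 0.981 and 0.978), and Gabarapl1 and Psma7 for Vamp1 (r = 0.987 and 0.975). For Unc13b they were Ffar2 and Zfp668 (r = 0.976 and 0.970), and for Syt11 Mib1 and Uhmk1 (r = 0.994 and 0.989). For Amph they were Lrrc4 and Cirh1a (r = 0.971 and 0.966). All were picked for the highest r among many genes, so that a high r alone is not evidence of a link. None of these nearest genes is among the 44 release genes.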

How the data were processed

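Striatal mRNA of 8 rats, 4 of each group, was sequenced after library preparation with a TruSeq kit that does not mark strand. Per the submitters' processing notes, reads were processed with cutadapt 1.18, STAR 2.7.0e and featureCounts of Subread 1.6.4 on rn6. The authors deposited raw counts per gene symbol, each rat in its own column. The annotation and the handling of reads shared between genes are not given in the sources used here, so values of paralogs and of overlapping genes are uncertain. Each column was matched to a rat by the name and number in the labels. The labels do not describe technical batches.

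The tools were edgeR 4.0.16, DESeq2 1.42.0 and limma 3.58.1 under R 4.3.3. Low-count genes were removed by filterByExpr (minimum count 10), libraries were scaled by TMM, and groups were compared by edgeR's quasi-likelihood test, with Benjamini-Hochberg adjustment over all 12014 genes. CPM values are TMM-scaled. Log2 CPM used a prior count of 2 and ratios a pseudocount of 0.5. The standard error is the log2 fold change divided by the square root of F. Exact permutation tests used all 70 labellings. The precision is set by the total counts and by the spread between rats, and the p-values of the quasi-likelihood test take in both.

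The members and lists were chosen with earlier results of these data known. Values in every rat are given for genes called, with an unadjusted p below 0.05 or without overlap, and for Syn1, Syt1, Snap25 and Slc17a7. Of the other machinery, the 5 genes with the lowest p are named, and the most similar genes are the 3 with the highest correlation. Alternatives were other scalings, filters and tests, omission of single rats, and a block for the rat number. The fit was tested on simulated data. The result of a marker gene is not reported here. Rats of the same number are different animals, and the correlation of their deviations from the group means was 0.01, -0.19, -0.20 and 0.04, so that the numbers were not taken as pairs. No 2 rats of a group agreed within sampling noise (the chi-square statistic over its degrees of freedom was 10.1 to 27.6).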

Additional observations from a re-analysis of the deposited data

Results flagged for a closer look

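Groups of 4 rats were examined for the level of each gene (86 groups) and for the ratio of each pair of genes (30 groups). In 8 of the 86 groups of gene levels (9.30%) and in 0 of the 30 groups of ratios, 1 rat lay far from the others, where the gap to the nearest rat divided by the range of the group exceeded Dixon's 95% critical value, and chance gives about 1 in 20 groups. The ratio was 0.948 for Slc17a7 in saline rat 1 (log2 CPM 6.04, others 1.69 to 1.92), the largest of the 8. METH rat 3 was the distant rat for 3 genes. It was the highest for Vamp2 (ratio 0.917, log2 CPM 10.30, others 10.14 to 10.15) and the lowest for Syt4 (0.915, log2 CPM 7.76, others 8.03 to 8.05) and for Nsf (0.873, log2 CPM 9.14, others 9.39 to 9.42). Saline rat 3 was the highest for Bsn (0.876, log2 CPM 8.34, others 8.15 to 8.17) and for Syngr1 (0.869, log2 CPM 6.32, others 6.01 to 6.05). Saline rat 1 was the highest for Sncb (0.887, log2 CPM 8.27, others 8.02 to 8.05), and METH rat 1 was the highest for Snap47 (0.891, log2 CPM 5.63, others 5.47 to 5.48).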

How the results depend on the processing

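No release gene was called higher under any alternative run. The number called, all lower, was 0 to 1 with a rat left out, where 37 to 70 of all genes were called. It was 1 with every gene of at least 1 count tested (79 of all 14412 genes). With the likelihood ratio test it was 1 (170 of all 12014 genes), and with DESeq2 it was 2 (186 of all 12014 genes). It was 0 with the other alternatives, and the main test called 62 of all 12014 genes. The count at an unadjusted p below 0.05 was 7 (16.3%, compared with 11.1% of all genes). With a rat left out it ranged from 5 to 13 (11.6% to 30.2%), and the share of all genes from 7.52% to 13%. The count without overlap between the groups was 4 with all rats (9.30%, compared with 6.39% of all genes). With a rat left out it ranged from 5 to 9 (11.6% to 20.9%), and the share of all genes was also higher, at 8.32% to 13.4%. The count without overlap was 9 (20.9%, compared with 13.6% of all genes) with saline rat 1 and METH rat 3 both left out, a setting added after seeing the data. The median log2 fold change of the release genes ranged from -0.15 to -0.00047 with a rat left out, and was -0.14 with total counts, under which the median of all genes shifted from -0.0055 to -0.041. With the rat number as a replicate block, 0 release genes were called and 5 had an unadjusted p below 0.05, the log2 fold change of Snap25 was -0.53 (FDR = 0.114, edgeR), and 37 of all genes were called. Same-numbered rats are different animals, and 1 of 4 saline rats correlated best with its own number. The other release machinery had 0 genes called under each alternative run for it.

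Of the 43 release genes, 27 kept the sign of the log2 fold change under every alternative. With total counts it turned to -0.0020 for Sv2a and -0.0097 for Syt7, and with saline rat 1 and METH rat 3 left out to 0.0064 for Syn1 and 0.98 for Slc17a7. With a rat left out, it ranged for Syn3 from -0.14 to 0.17, Syngr3 from -0.067 to 0.014, Sv2a from -0.0021 to 0.057, Sv2c from -0.39 to 0.015, Syt4 from -0.00039 to 0.12, Syt7 from -0.061 to 0.13, Doc2a from -0.063 to 0.19, Doc2b from -0.15 to 0.0089, Stx1a from -0.19 to 0.063, Unc13a from -0.034 to 0.15, Bsn from -0.0027 to 0.18, Pclo from -0.061 to 0.20, Erc2 from -0.26 to 0.018, Dnm1 from -0.085 to 0.014 and Slc17a7 from -2.06 to 0.96. The difference in log2 ratio ranged for Syn1/Syn2 from -0.0071 to 0.14, Syn1/Syn3 from -0.23 to 0.17, Rims2/Rims1 from -0.014 to 0.050, Pclo/Bsn from -0.13 to 0.065 and Slc17a7/Slc17a6 from -1.23 to 0.26. The causes were not tested. The depth of 18135939 to 21211920 counts does not allow a comparison for Slc17a6, and with 4 rats per group no exact permutation p below 0.0286 is possible.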
